A study of Mus musculus with 6 samples.

Results

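Adipokines are proteins that fat secretes, and 6 of them were taken by their symbols from a table of 28529 mouse genes: *Lep* (leptin), *Adipoq* (adiponectin), *Retn* (resistin), *Cfd* (adipsin, also called complement factor D), *Rbp4* (retinol binding protein 4) and *Apln* (apelin). All 6 were found, and all 6 passed the filter on low counts. The RNA came from eWAT (epididymal white adipose tissue, the fat pad beside the epididymis) of 3 wild-type (WT) and 3 *Maf1*-/- (KO) male mice with 1 library per mouse. Mice of both genotypes were 22 to 24 weeks old, were labelled C57BL/6, ate the same breeder chow and had been fasted overnight before the tissue was taken. The WT mice were C57Bl6/J, and the KO mice lacked *Maf1*, a repressor of RNA polymerase III, in the whole body, so the loss was not limited to adipocytes. Libraries are called WT1 to WT3 and KO1 to KO3 after their replicate numbers.

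Leptin is released in proportion to fat stores and acts on the hypothalamus to restrain feeding, and its expression is known to drop during fasting. Adiponectin is the most abundant hormone of adipocytes, circulates as multimers and raises insulin sensitivity in liver and muscle. Resistin, which adipocytes make in mice, opposes insulin action, adipsin is a protease of the alternative complement pathway, RBP4 carries retinol in plasma, and apelin is a peptide ligand of a G protein-coupled receptor on blood vessels and heart.

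Library totals ranged from 7207476 counts (KO2) to 15971900 counts (WT2). Levels are given as CPM, counts scaled to library size, after TMM normalization, which sets libraries to a common typical gene, and errors are SD over 3 mice. *Maf1* had 655, 1120 and 852 counts in WT1 to WT3 and 150, 87 and 300 in KO1 to KO3, and its unadjusted p of 2.25e-04 was the lowest in the table (edgeR, adjusted p 1.00). The 20 adipocyte markers summed to between 36617 and 44394 CPM in WT and between 26710 and 49253 CPM in KO. By these sums the labelled tissue was seen in every library, and no marker lacked counts in all libraries at once. Other tissue was carried along unequally. Epididymis markers summed to 16.8 CPM in WT1 and 793 CPM in KO1 but to between 3911 and 8232 CPM in the other 4 libraries, and markers of the vas deferens and seminal vesicle reached 1940 CPM in KO1 and 8291 CPM in KO2 against 19.2 to 28.6 CPM in the rest. WT1 and KO1 stood apart from the other 4 libraries on the first principal component, which held 62.0% of the variance. In whole tissue, fewer cells of a type and less RNA per cell cannot be told apart.

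Promoters are shown for the 3 members whose libraries did not overlap between genotypes (*Lep*, *Adipoq* and *Apln*), so the choice follows the genotype comparison. Each run is the 100 bases before the RefSeq start (table build GRCm38.p6), found once and without mismatch in mm9, and written 5′ to 3′ on the strand of the gene. Capitals mark matches to 5 motifs searched on both strands, which were TATAA of the core promoter, the palindrome TTGCGCAA bound by C/EBP factors, CCAAT bound by NF-Y, GGGCGG bound by Sp1 and CACGTG, the E box.
*Lep*, chr6:29010121-29010220, plus strand: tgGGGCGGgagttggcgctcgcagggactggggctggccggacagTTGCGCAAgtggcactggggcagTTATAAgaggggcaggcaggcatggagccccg
*Adipoq*, chr16:23146509-23146608, plus strand: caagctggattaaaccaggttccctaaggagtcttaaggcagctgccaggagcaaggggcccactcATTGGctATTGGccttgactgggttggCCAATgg
*Apln*, chrX:45388031-45388130, minus strand: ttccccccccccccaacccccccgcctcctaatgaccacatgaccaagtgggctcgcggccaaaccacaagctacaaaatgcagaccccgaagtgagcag

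Counting back from the start, the *Lep* window held GGGCGG at −98 to −93, the C/EBP palindrome at −55 to −48 and TATAA at −31 to −27, which overlaps a match on the reverse strand at −32 to −28. C/EBPα is known to drive the leptin promoter through a site of this kind. The palindrome occurred in 22 of 32851 RefSeq windows of the same length (0.0670%), whereas TATAA occurred in 10.2% and GGGCGG in 24.7%. The *Adipoq* window held CCAAT at 3 places, at −34 to −30 and −27 to −23 on the reverse strand and at −7 to −3 on the forward strand, a motif found in 18.9% of windows. No match to any of the 5 motifs, including CACGTG (3.17% of windows), was found in the *Apln* window. Among the members not shown, *Retn*, *Cfd* and the first start of *Rbp4* had no match. The second start of *Rbp4* held TATAA at −28 to −24 and GGGCGG on the reverse strand at −99 to −94. These matches describe letters only, no binding was measured, and a link to genotype was not tested.

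Per kilobase of exon, *Cfd* and *Adipoq* were the leading members, and *Apln* was the lowest by a wide margin. In WT the levels were 5986 ± 1267 CPM per kb for *Cfd*, 2812 ± 412 for *Adipoq*, 623 ± 318 for *Retn*, 137 ± 94.7 for *Lep*, 73.0 ± 4.46 for *Rbp4* and 3.21 ± 0.648 for *Apln* (SD, n = 3). Among 28339 genes with an exon length, *Cfd* ranked 17 and *Adipoq* 30 by mean WT level, while *Apln* ranked 10736. In KO the levels were 7824 ± 4057 CPM per kb for *Cfd*, 2021 ± 234 for *Adipoq*, 731 ± 486 for *Retn*, 88.1 ± 42.2 for *Rbp4*, 49.2 ± 7.01 for *Lep* and 1.67 ± 0.447 for *Apln*. The order thus differed between genotypes only for the neighbours *Lep* and *Rbp4*, whose ranges overlapped in each genotype. Per length, the ratio of *Lep* to *Rbp4* was 0.849, 1.43 and 3.50 in WT1 to WT3 and 0.378, 0.490 and 1.18 in KO1 to KO3. All other neighbours in the order had ranges that did not overlap within a genotype. Together the 6 genes took 0.962% to 1.25% of all counts in WT libraries and 0.851% to 1.60% in KO libraries.

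**Figure D1:**
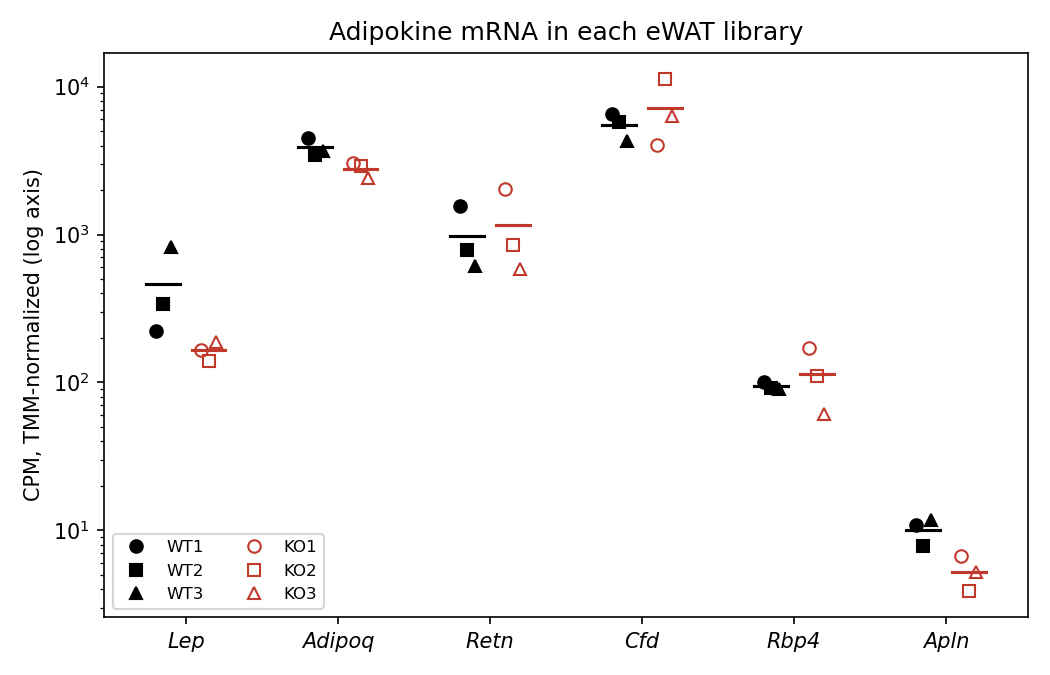
TMM-normalized CPM of each adipokine on a log axis, with 1 point per library and a bar at the mean of each genotype (3 WT and 3 KO mice). The KO points of *Lep*, *Adipoq* and *Apln* lie below all WT points, while those of *Retn*, *Cfd* and *Rbp4* overlap.

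The comparison of KO with WT asks whether expression of these hormones differs when *Maf1* is missing. *Lep*, *Adipoq* and *Apln* were lower in every KO library than in every WT library, and *Retn*, *Cfd* and *Rbp4* overlapped. None of the 6 passed an adjusted p of 0.05 in edgeR's quasi-likelihood test with Benjamini-Hochberg adjustment, where 0 of 16101 genes passed (0%). At an unadjusted p under 0.05 there were 2 of 6 members (*Lep* and *Apln*, both lower in KO) beside 302 genes or 1.88% of all tested. The 3 members without overlap, all lower in KO, stand beside 6.27% of all genes without overlap in either direction and 3.37% with KO lower. DESeq2 called 8 genes higher and 6 lower over the whole table, edgeR's exact test called 2 higher and 2 lower and limma voom called 0, and no member was among them.

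*Lep* spanned the widest range of the 6 genes, and WT mice spread more widely than KO mice, a difference in spread that was not tested. The gene (ENSMUSG00000059201, chr6:29010220-29023877 on the plus strand) had 2567, 5693 and 10550 counts in WT1 to WT3 and 1848, 1053 and 2542 in KO1 to KO3. In CPM these were 223, 339 and 822 in WT and 167, 141 and 188 in KO. The KO mice lay close together, and WT3 stood far above the other WT mice. Means were 461 ± 318 CPM in WT and 165 ± 23.5 CPM in KO (SD, n = 3), a log2 fold change of −1.48 (SE 0.49, 95% interval −2.65 to −0.31). The unadjusted p of edgeR's quasi-likelihood test was 0.0205 and the adjusted p 1.00, and over the 20 alternatives the adjusted p ranged from 0.454 to 1.00. Without WT3 the log2 fold change was −0.76, and leaving out the other libraries one at a time gave values down to −1.82. The SD of log2 CPM was 0.96 among WT and 0.21 among KO mice. Over all 6 libraries it was 0.93, beside a median of 0.31 for 10345 genes with at least 10 CPM.

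*Adipoq* was the steadiest member. It lies at chr16:23146609-23158101 on the plus strand (ENSMUSG00000022878) and had 4531, 3467 and 3650 CPM in WT1 to WT3 and 3036, 2912 and 2425 CPM in KO1 to KO3. The lowest WT mouse was thus above the highest KO mouse, with means of 3883 ± 569 and 2791 ± 323 CPM (SD, n = 3). The log2 fold change was −0.48 (SE 0.29, 95% interval −1.16 to 0.21), with an unadjusted p of 0.144 and an adjusted p of 1.00 in edgeR's test. Leaving out single libraries moved it between −0.55 and −0.35. The highest library exceeded the lowest by 1.87-fold, against 5.84-fold for *Lep*.

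*Apln* was the member with the fewest reads, so its counts carry the largest counting error. The gene, at chrX:45378323-45388030 on the minus strand (ENSMUSG00000037010), had 125, 131 and 150 counts in WT1 to WT3 and 74, 29 and 71 in KO1 to KO3. These gave 10.8, 7.80 and 11.7 CPM in WT and 6.68, 3.87 and 5.24 CPM in KO, without overlap. Means were 10.1 ± 2.04 and 5.26 ± 1.41 CPM (SD, n = 3), and the log2 fold change was −0.94 (SE 0.33, 95% interval −1.73 to −0.14). The unadjusted p was 0.0271 and the adjusted p 1.00 in edgeR's test, and single libraries left out gave −1.14 to −0.76. Endothelial cells also make apelin, and all 12 endothelial markers had log2 fold changes below 0 (median −0.35, 0 called), but the median was 0.039 without WT1 and −0.59 without KO1. Their sum was 2123, 1056 and 1367 CPM in WT1 to WT3 and 1433, 1068 and 1127 CPM in KO1 to KO3. No endothelial marker lacked counts in all libraries at once. Their part in the *Apln* result was not tested.

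*Retn* differed more among mice of one genotype than between genotypes. It lies at chr8:3655770-3660110 on the plus strand (ENSMUSG00000012705) and had 1554, 782 and 613 CPM in WT1 to WT3 and 2026, 852 and 585 CPM in KO1 to KO3. WT1 and KO1, the libraries with the least epididymal signal, were the highest of their genotypes. The log2 fold change was 0.23 (SE 0.57, 95% interval −1.13 to 1.59), with an unadjusted p of 0.696. Its sign rested on single mice, since it was −0.45 without KO1 and −0.002 without WT3. The part of the epididymal tissue was not tested.

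*Cfd* was highest in KO2 and lowest in KO1. The gene (ENSMUSG00000061780, chr10:79353598-79355401, plus strand) had 6574, 5737 and 4263 CPM in WT1 to WT3 and 4012, 11335 and 6317 CPM in KO1 to KO3. The KO range enclosed the WT range, with means of 5525 ± 1170 in WT and 7221 ± 3744 CPM in KO (SD, n = 3). The log2 fold change of 0.39 (SE 0.47, 95% interval −0.74 to 1.51, unadjusted p 0.441) became −0.095 without KO2. KO2 also had the highest sum of the 11 smooth muscle and pericyte markers, at 6663 CPM. KO1, where *Cfd* was lowest, had the next highest sum at 3728 CPM, and the remaining libraries had 1036 to 1587 CPM. The part of that tissue was not tested.

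*Rbp4* was almost level among WT mice and scattered among KO mice. It lies at chr19:38191110-38199811 on the minus strand (ENSMUSG00000024990) and had 101, 91.8 and 90.9 CPM in WT1 to WT3 and 171, 111 and 61.2 CPM in KO1 to KO3. The SD of log2 CPM was 0.087 among WT and 0.74 among KO mice, the reverse of the pattern of *Lep*. The log2 fold change was 0.27 (SE 0.36, 95% interval −0.58 to 1.13, unadjusted p 0.474), and it was −0.14 without KO1. No annotated gene on either strand overlapped any of the 6 genes.

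**Figure D2:**
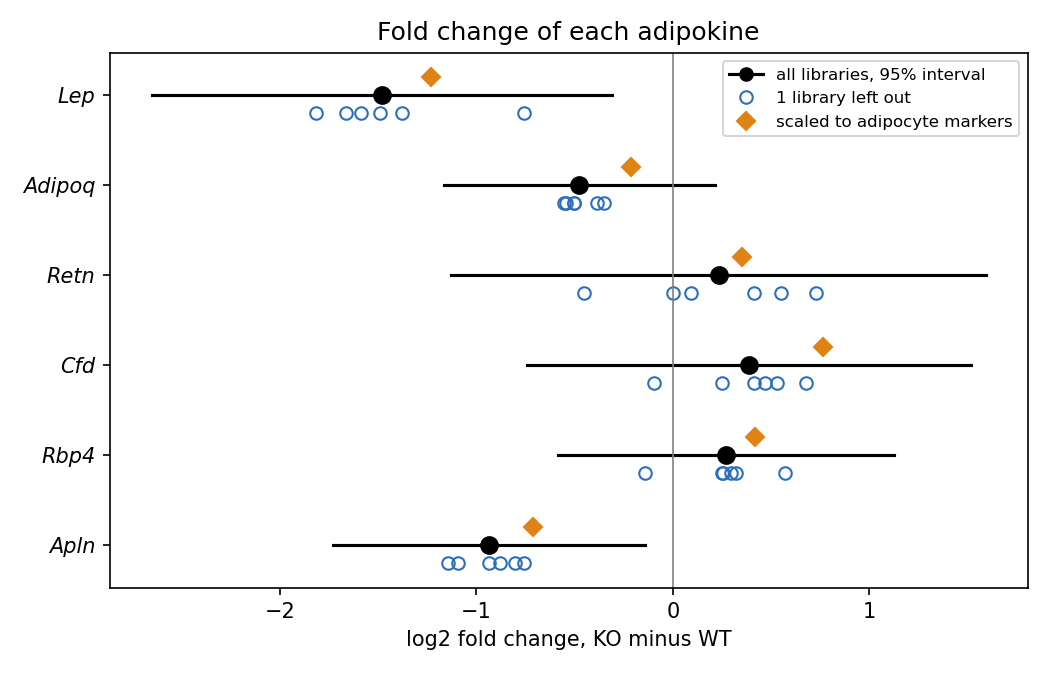
Log2 fold change of KO over WT for each adipokine, with the 95% interval of edgeR's quasi-likelihood fit and the values obtained when each library is left out. The intervals of *Lep* (−2.65 to −0.31) and *Apln* (−1.73 to −0.14) lie below 0 before adjustment, and the left-out values of *Retn*, *Cfd* and *Rbp4* fall on both sides of 0.

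Leptin and adiponectin are often read as a ratio, since they respond in opposite directions to the size of fat stores. The ratio of *Adipoq* to *Lep* counts was 20.4, 10.2 and 4.44 in WT1 to WT3 and 18.2, 20.7 and 12.9 in KO1 to KO3. WT1 lay within the KO range, so the genotypes overlapped. The mean log2 ratio was higher in KO by 0.80. Its two-sided exact permutation p was 0.3 (n = 3 and 3, smallest possible p 0.1). The difference was 0.23 without WT3 and 1.33 without WT1.

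The members were next set against the counts of the 20 adipocyte markers in the same library, which puts them on a scale of adipocyte transcripts. Per 1000 marker counts, *Lep* had 5.01, 9.26 and 21.6 counts in WT1 to WT3 and 3.39, 4.85 and 7.02 in KO1 to KO3, so the genotypes now overlapped. *Adipoq* was nearly level in WT at 102, 94.7 and 96.0, and had 61.6, 100.4 and 90.8 in KO, where KO1 was the lowest, KO3 also lay below all WT libraries and KO2 lay within the WT range. *Apln* kept its separation against these summed counts, with 0.244, 0.213 and 0.307 in WT against 0.136, 0.133 and 0.196 in KO. For *Apln* the log2 difference was −0.72 and the two-sided exact permutation p 0.1, the smallest that 3 against 3 allow, or 0.48 after adjustment over the 6 members. The exact p of *Lep* was 0.2 with a log2 difference of −1.04, which was −0.49 without WT3 and −1.54 without WT1, and those of the other 4 members lay between 0.3 and 0.5. With other references *Apln* overlapped between genotypes, at an exact permutation p of 0.4 against *Plin1* alone and 0.2 against the geometric mean of the markers.

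**Figure D3:**
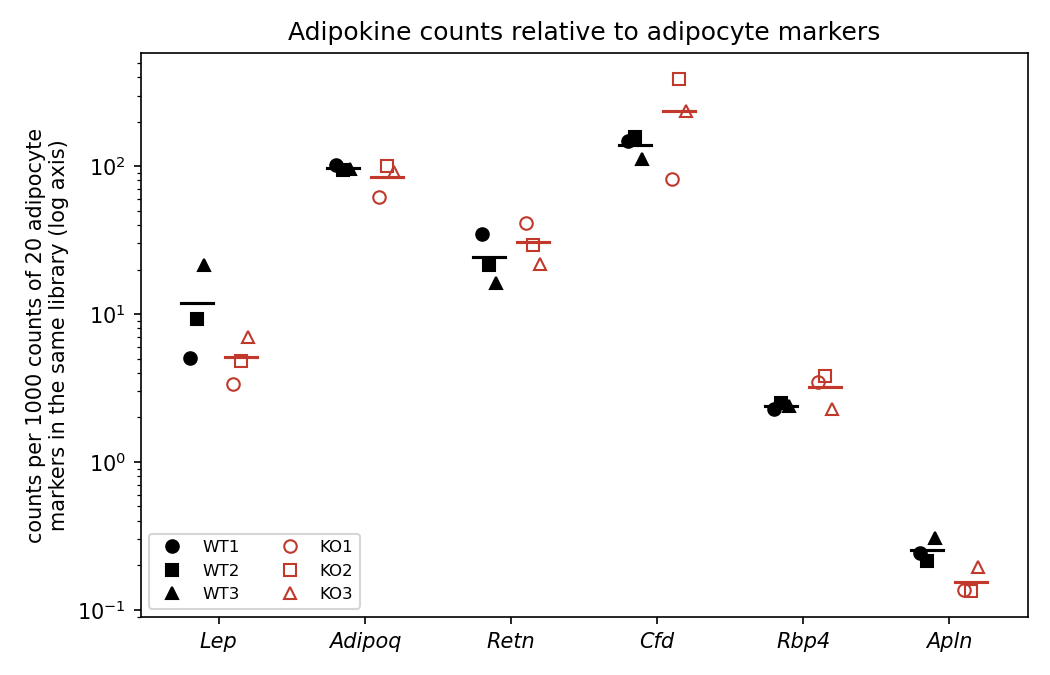
Counts of each adipokine per 1000 counts of the 20 adipocyte markers, by library, on a log axis. The 3 KO points of *Apln* (0.133 to 0.196) lie below its 3 WT points (0.213 to 0.307), and the genotypes overlap for the other 5 genes.

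The marker genes themselves varied among KO mice, and the 20 gave 0 calls, with 7 log2 fold changes above 0 and 13 below (median −0.21). That median was 0.045 without WT1, 0.0044 without KO3, −0.051 without KO2 and −0.70 without KO1. *Plin1*, which coats the lipid droplet, had 783, 1032 and 1080 CPM in WT1 to WT3 and 1217, 382 and 596 CPM in KO1 to KO3. *Fabp4*, a fatty acid carrier, had means of 7636 ± 1025 and 8230 ± 2711 CPM (SD, n = 3). With libraries scaled to the marker counts in edgeR, the log2 fold changes were −1.23 for *Lep*, −0.21 for *Adipoq*, 0.35 for *Retn*, 0.77 for *Cfd*, 0.42 for *Rbp4* and −0.71 for *Apln*. That scaling moved the median over all genes from 0.0078 to 0.28, so these values are to be read against it.

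Other secreted factors of fat gave 0 calls in either direction among 26 tested of 30, with 10 log2 fold changes above 0 and 16 below and a median of −0.10, beside 0.0078 over all genes. The median became 0.11 when libraries were scaled to adipocyte marker counts, beside 0.28 over all genes. Scaled medians of the lists that follow are to be read against the same 0.28. *Sfrp5*, a secreted antagonist of Wnt signalling, had 35.1, 52.6 and 174 CPM in WT1 to WT3 and 8.67, 18.6 and 18.8 CPM in KO1 to KO3. As with *Lep*, WT3 was the highest library, and the genotypes did not overlap (log2 fold change −2.51, SE 0.67, unadjusted p 0.00781). *Lcn2*, a lipocalin that binds bacterial siderophores, had 9.19, 17.0 and 18.4 CPM in WT and 21.8, 29.2 and 22.6 CPM in KO, with KO higher in every library (0.72, SE 0.31, unadjusted p 0.0524). Both genes had an adjusted p of 1.00 in edgeR's test.

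Genes that share the C1q domain of adiponectin gave 0 calls among 9 tested of 12 listed, with 7 log2 fold changes below 0 and a median of −0.25, which was 0.051 when scaled to adipocyte marker counts. The smallest unadjusted p belonged to *Col8a1* (a collagen chain) at −0.76 (SE 0.33), *C1qtnf1* at −0.56 (SE 0.28) and *C1qtnf9* at −0.45 (SE 0.27), and all 3 overlapped between genotypes. The 2 resistin-like genes tested went opposite ways without a call. *Retnla*, made by macrophages activated by type 2 cytokines, had 287 ± 98.5 CPM in WT and 246 ± 45.3 in KO (SD, n = 3), and *Retnlg* had a log2 fold change of 0.22 (SE 0.53).

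The 12 genes for assembly and release of adiponectin in the endoplasmic reticulum gave 0 calls (5 above 0, 7 below, median −0.080, or 0.23 when scaled to adipocyte marker counts). *Ero1l*, the oxidase that supports disulfide bonding and adiponectin release, had 23.6, 20.3 and 22.2 CPM in WT1 to WT3 and 18.4, 15.0 and 18.6 CPM in KO1 to KO3. It did not overlap between genotypes (log2 fold change −0.35, SE 0.19), while *Erp44*, which retains adiponectin, was at 0.30 (SE 0.23) and *Plod1*, a collagen lysine hydroxylase, at −0.34 (SE 0.20).

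Receptors and binding partners gave 0 calls among 14 tested of 15 (5 above 0, 9 below, median −0.085, or 0.19 when scaled to adipocyte marker counts). The leptin receptor *Lepr* had 6.76 ± 2.29 CPM in WT and 8.43 ± 1.69 in KO (SD, n = 3). *Leprot*, which limits surface display of that receptor, had 59.8 ± 3.45 and 50.4 ± 4.51 CPM without overlap, a log2 fold change of −0.25 (SE 0.15). The adiponectin receptors *Adipor1* and *Adipor2* were at −0.084 (SE 0.18) and −0.12 (SE 0.35), and *Cdh13*, which binds adiponectin multimers on vessels, at −0.37 (SE 0.35). The apelin receptor *Aplnr* had 34.6 CPM in KO1 and 3.47 to 14.8 CPM in the other 5 libraries. *Socs3*, a feedback inhibitor of leptin signalling, was at −0.55 (SE 0.44), and *Stra6*, the receptor for RBP4, was barely expressed at 0.560 ± 0.404 CPM in WT and 1.33 ± 0.817 in KO.

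The alternative complement pathway, in which adipsin cleaves factor B bound to C3b, gave 0 calls among 10 tested of 12 listed (4 above 0, 6 below, median −0.10, or 0.15 when scaled to adipocyte marker counts). *C3* had 1850 ± 281 CPM in WT and 1868 ± 363 in KO (SD, n = 3). Factor B itself, *Cfb*, was scarce at 1.59 ± 0.981 and 0.770 ± 0.440 CPM (log2 fold change −1.01, SE 0.71). *Masp1*, whose products include a protease that activates pro-factor D, was at 0.67 (SE 0.65), and *Cfi*, which inactivates C3b, at 0.64 (SE 0.68).

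Retinoid handling gave 0 calls among 12 tested of 14 (6 above 0, 6 below, median −0.041, or 0.24 when scaled to adipocyte marker counts). *Dhrs3*, which reduces retinaldehyde, was at −0.58 (SE 0.27), and *Aldh1a2*, which makes retinoic acid, was at −0.25 (SE 0.19). The 14 transcription factors of fat cells gave 0 calls (4 above 0, 10 below, median −0.11, or 0.12 when scaled to adipocyte marker counts). *Pparg* and *Cebpa*, the main drivers of adipocyte genes, were at −0.23 (SE 0.54) and −0.19 (SE 0.37). *Zfp423*, *Ebf1* and *Foxo1*, which act earlier in or alongside adipogenesis, were at −0.35 (SE 0.34), −0.31 (SE 0.32) and −0.26 (SE 0.27).

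The 6 adipokines did not share one pattern over the libraries. Likeness was taken as the root mean square difference of log2 CPM after each gene was centred on its mean over the 6 libraries, so that smaller is more alike. By this description *Adipoq* and *Apln* were closest at 0.37, *Retn* and *Rbp4* followed at 0.40, and *Lep* and *Retn* were farthest apart at 1.30. The measure is not scaled to spread, so genes that vary little tend to come out close. The SD of log2 CPM over all libraries was 0.31 for *Adipoq*, 0.60 for *Apln*, 0.73 for *Retn* and 0.48 for *Rbp4*. *Lep* was nearest to *Apln* at 0.57. Of 10344 other genes, the nearest to *Lep* were *Npr3* (0.24), *Slc6a13* (0.35) and *Ric3* (0.36). *Npr3*, the clearance receptor for natriuretic peptides, had 446, 504 and 976 CPM in WT1 to WT3 and 238, 219 and 342 CPM in KO1 to KO3, with WT3 highest as for *Lep*. The nearest genes to *Adipoq* were *Frmd8* (0.071), *Gimap6* (0.072) and *Snx32* (0.082). *Rgma* (0.13), *Rpl35* (0.13) and *Cat* (0.16) were nearest to *Retn*, and *Cat*, the peroxisomal enzyme catalase, had 1411 and 2331 CPM in WT1 and KO1 against 739 to 907 CPM elsewhere. *Znrd1*, *Ptma* and *Rdm1* (each 0.15) were nearest to *Cfd*, all with KO2 highest. *Parp16* (0.064), *Mrpl42* (0.10) and *Idh1* (0.11) were nearest to *Rbp4*, and *Srpx2* (0.11), *Abat* (0.15) and *Hmcn1* (0.16) to *Apln*.

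**Figure D4:**
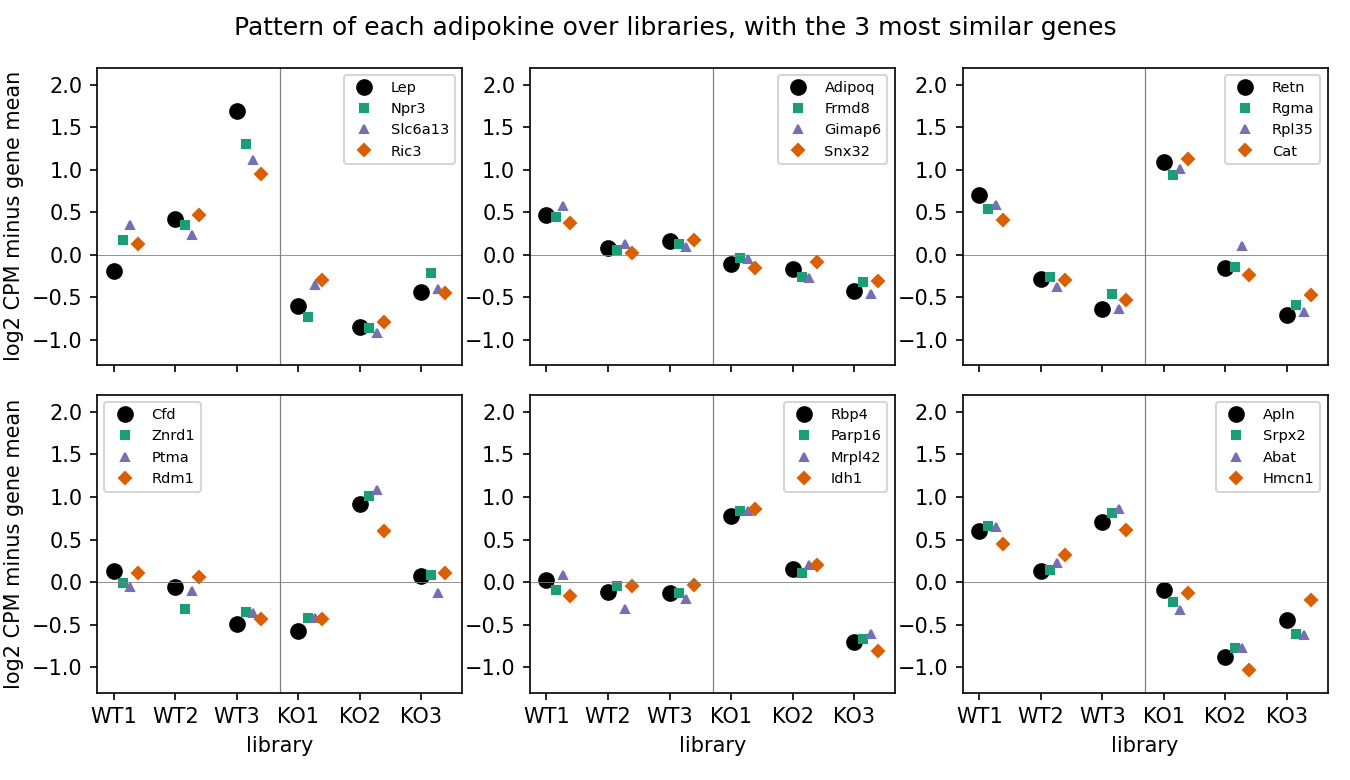
Log2 CPM of each adipokine (black circles) minus its mean over the 6 libraries, beside the 3 genes with the smallest root mean square difference from it (coloured symbols). *Lep* and its neighbours peak in WT3, *Retn* and its neighbours in WT1 and KO1, *Cfd* and its neighbours in KO2, and *Rbp4* and its neighbours in KO1.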

How the data were processed

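RNA of eWAT from 3 WT and 3 *Maf1*-/- mice was sequenced, with 1 library per mouse from directional total RNA depleted of ribosomal RNA and amplified for 18 cycles. The deposited table gives an expected count per gene and library, made by the authors, and all of these were whole numbers. The submitters' processing notes name CASAVA, GSNAP, HTSeq, edgeR and mm9, and the strand setting of the counting is not given in the sources used here. A total and a decimal factor at the foot of each deposited column (2 lines) name no gene and were dropped. The 6 columns of normalized counts and the authors' fold changes, p-values and FDR were not used.

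Genes were filtered with filterByExpr (16101 of 28529 kept), normalized by TMM and tested with edgeR 4.0.16 (quasi-likelihood) in R 4.3.3, with libraries grouped by genotype alone. The Benjamini-Hochberg adjustment ran over all genes tested. The procedure was tested on simulated data. Ratios were compared with two-sided exact permutation tests over libraries. A gene did not overlap when every KO library lay on one side of every WT library. Marker sums are sums of TMM-normalized CPM. Library totals of 7207476 to 15971900 counts limit precision most for *Apln* and for genes near 1 CPM. Reads were not collapsed by molecular identifiers.

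The members and gene lists were chosen with earlier results of these data known. Named were the members, *Maf1*, *Lepr*, *Adipor1*, *Adipor2*, *Cdh13*, *Aplnr*, *C3*, *Cfb*, *Retnla*, *Plin1*, *Fabp4*, *Pparg* and *Cebpa*, the 3 tested genes with the smallest unadjusted p of each list that is not a marker list, and the 3 genes with at least 10 CPM most like each member (log2 CPM with a prior count of 1). Some genes that this rule names are not reported here. As alternatives, DESeq2 1.42.0, voom of limma 3.58.1 and edgeR's exact test were run, as were other normalization factors and filters, scaling to adipocyte markers, the replicate block and fits with libraries left out. Residuals of WT and KO libraries with the same replicate number correlated at 0.65, 0.37 and 0.35 over genes. These exceed 0.1, and the replicate block treats the numbers as pairs. The main fit and the exact permutation tests did not pair libraries. WT2 correlated more with KO3 (0.48) than with KO2, and the mice are separate animals. Sequences are from RefSeq and coordinates are in mm9, counted from 1. Tables and plots were made with Python 3.11.15, pandas 2.3.3, numpy 2.4.6 and matplotlib 3.10.9.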

Additional observations from a re-analysis of the deposited data

How the results depend on the processing

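None of the 6 members passed an adjusted p of 0.05 under any of 20 alternatives, and *Lep*, *Adipoq* and *Apln* stayed lower in KO in all of them. With single libraries left out, *Retn* ranged from −0.45 to 0.73, *Cfd* from −0.095 to 0.67 and *Rbp4* from −0.14 to 0.57 on the log2 scale, so their signs changed, and *Retn* was −0.0024 without WT3. Leaving out both libraries of a replicate number, chosen after seeing the data, turned *Cfd* to −0.039 (number 2) and *Rbp4* to −0.087 (number 1). The replicate block gave −1.27 for *Lep*, −0.47 for *Adipoq* and −0.95 for *Apln* and changed no call. DESeq2 called 8 genes higher and 6 lower and the exact test 2 and 2, against 0 and 0 in the quasi-likelihood test. Scaled to adipocyte markers, 1 member (*Apln*) did not overlap, beside 5.40% of all genes, instead of 3. Set against *Plin1* alone, *Adipoq* differed by 0.078 instead of −0.24 and *Apln* by −0.40 instead of −0.72. Against the geometric mean of the 20 markers, *Apln* differed by −0.66 (exact permutation p 0.2) and *Rbp4* by 0.44 (exact permutation p 0.1). With single libraries left out, the medians of the lists ranged from −0.35 to 0.025 (other secreted factors), −0.39 to −0.10 (C1q domain genes), −0.096 to 0.049 (adiponectin assembly), −0.14 to 0.026 (receptors), −0.29 to 0.14 (complement), −0.14 to 0.17 (retinoid handling) and −0.39 to 0.051 (transcription factors), so all but the C1q domain genes changed sign. Per adipocyte marker count, *Adipoq* ranged from −0.38 to −0.031 (without KO1), *Cfd* from 0.013 (without KO2) to 1.14 and *Retn* from 0.12 to 0.68. The causes were not tested. With 3 mice per genotype the unpaired exact tests cannot go below 0.1. Paired by replicate number, exact sign-flip tests per adipocyte marker count gave p of 0.25 for *Lep*, *Apln* and *Retn* and up to 0.75 (*Adipoq*). A p of 0.25 is the smallest that 3 pairs allow, and *Retn* was higher in KO. The same paired test gave p of 0.5 for the ratio of *Adipoq* to *Lep*.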
